A study of Mus musculus with 2 samples.

Results

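Transcripts for glucose entry and for the first committed steps of glycolysis were compared between all cells of the mouse heart and its epicardial cells in mid-gestation. The group was set by name: the glucose transporter genes Slc2a1, Slc2a3 and Slc2a4, the hexokinase genes Hk1 and Hk2, the isomerase gene Gpi1, the phosphofructokinase genes Pfkl, Pfkm and Pfkp, and Pdk1, a kinase of pyruvate dehydrogenase. Of these 10 genes, 8 were read by a total of 15 probes, out of 34885 probes that carried 1 gene symbol and stood for 19057 genes. Hk2 and Gpi1 were named by no probe in the annotation used, so their expression was not analysed here.

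One array was hybridised with RNA of the total dissociated cells of E11.5 hearts and 1 with RNA of lacZ-positive epicardial cells from such hearts. All hearts carried the Tcf21lacZ genotype, in which lacZ marks cells that use Tcf21, the gene of an epicardial transcription factor, and their strain background was a mix of C57BL/6, 129 and CD-1. The number of hearts pooled, their Tcf21 dosage and the way the cells were isolated are not stated in these sources. With 1 array in each group there was no replicate, so differences are described by size and no test was possible. The error given is the standard error over the beads that carry a probe, which covers measurement on these arrays only, and the number of arrays limits the precision of every value.

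Glucose enters cells through facilitative transporters. Hexokinases trap it by phosphorylation, Gpi1 converts the product to the fructose form, and phosphofructokinase commits it to glycolysis. Pdk1 acts further down, where it inhibits pyruvate dehydrogenase and so keeps pyruvate out of the mitochondrial cycle. Slc2a1 is the widespread transporter and the main one of the embryonic heart, Slc2a3 has a high affinity and is known from neurons and embryonic tissue, and Slc2a4 is the insulin-responsive transporter of muscle and fat. Hk1 is the general hexokinase and the form of red cells. The phosphofructokinase subunits are named after the liver (Pfkl), muscle (Pfkm) and platelet (Pfkp) and assemble as tetramers.

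The deposited files hold no probe sequences, so the promoters of the members on which the results turn are shown. They are those of Hk1, Pfkp and Pdk1, which gave signals lower by 2-fold or more in the lacZ-positive cells, and of Slc2a1, which differed least. The sequences come from RefSeq on build GRCm38.p6, where 8 of the 10 members matched with 13 start sites. Slc2a3 and Slc2a4 were not matched. Each runs 5′ to 3′ from 250 bases before to 50 bases after a listed start. Capitals mark ACGTG, a form of the core of the hypoxia response element, and GGGCGG, the GC box of Sp1-type factors, on either strand. The other form of that core, GCGTG, is not marked.
Slc2a1 (chr4:119108495-119108794, plus strand): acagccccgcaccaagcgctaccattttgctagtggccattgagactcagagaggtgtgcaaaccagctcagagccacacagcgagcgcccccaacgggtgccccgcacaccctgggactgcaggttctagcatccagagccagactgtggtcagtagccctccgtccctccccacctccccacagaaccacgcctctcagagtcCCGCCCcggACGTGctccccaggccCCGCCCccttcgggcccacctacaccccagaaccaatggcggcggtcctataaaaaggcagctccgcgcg
Hk1, first listed start (chr10:62340372-62340671, minus strand): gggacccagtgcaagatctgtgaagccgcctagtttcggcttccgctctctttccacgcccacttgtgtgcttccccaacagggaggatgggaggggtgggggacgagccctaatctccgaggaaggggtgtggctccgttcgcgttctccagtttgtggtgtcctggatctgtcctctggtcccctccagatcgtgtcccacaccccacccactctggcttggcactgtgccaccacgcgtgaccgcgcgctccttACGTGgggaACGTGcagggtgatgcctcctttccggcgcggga
Hk1, other start (chr10:62379859-62380158, minus strand): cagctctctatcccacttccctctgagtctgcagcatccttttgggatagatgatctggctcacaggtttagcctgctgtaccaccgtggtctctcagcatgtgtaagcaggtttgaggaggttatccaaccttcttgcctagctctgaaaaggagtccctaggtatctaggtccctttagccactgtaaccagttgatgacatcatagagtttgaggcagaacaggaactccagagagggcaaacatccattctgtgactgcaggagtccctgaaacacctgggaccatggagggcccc
Pfkp (chr13:6648722-6649021, minus strand): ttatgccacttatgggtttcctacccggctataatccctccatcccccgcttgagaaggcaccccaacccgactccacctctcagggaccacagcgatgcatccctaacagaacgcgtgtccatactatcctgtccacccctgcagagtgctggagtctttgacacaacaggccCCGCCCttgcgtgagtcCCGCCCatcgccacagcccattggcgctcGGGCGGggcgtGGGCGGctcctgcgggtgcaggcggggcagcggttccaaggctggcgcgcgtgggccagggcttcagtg
Pdk1 (chr2:71872974-71873273, plus strand): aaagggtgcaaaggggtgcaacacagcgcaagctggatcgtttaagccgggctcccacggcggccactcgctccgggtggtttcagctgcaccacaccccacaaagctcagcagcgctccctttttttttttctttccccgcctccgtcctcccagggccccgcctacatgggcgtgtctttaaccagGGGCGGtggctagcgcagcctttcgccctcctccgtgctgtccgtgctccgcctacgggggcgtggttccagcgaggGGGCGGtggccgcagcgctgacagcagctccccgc

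ACGTG stood once in the Slc2a1 window and at 2 places in the first listed Hk1 window. It was found in neither the Pfkp nor the Pdk1 window shown. The GCGTG form of the core was not counted, and it can be read in both of those windows, so they do not lack the core. Among all 13 windows of the members, 5 held ACGTG, against 19.6% of the 32851 promoter windows in the table. The longer CACGTG, which contains ACGTG on both strands, was present in 7.15% of all windows and, among the members, in 1 window of Pfkm. GC boxes were counted at 4 places for Pfkp, at 2 for Slc2a1 and at 2 for Pdk1. In all, 6 of the 13 windows held one, against 35.7% of all windows. These counts include Hk2 and Gpi1, and without them 4 of 11 windows held ACGTG and 4 of 11 a GC box. Several windows belong to the same gene, and some of those of Pfkm overlap. The matches describe these letters only.

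All 8 measured genes gave less signal in the lacZ-positive cells than in total heart, by 1.37-fold for Slc2a1 to 2.93-fold for Hk1. A gene stands here on its brightest probe, after background correction and equalisation of the arrays. A log2 ratio below 0, meaning less signal in the lacZ-positive cells, was seen in 45.7% of the 9713 genes that passed the detection limit on 1 array or both. Of the 8, 4 were at least 2-fold lower (Hk1, Pfkp, Slc2a4 and Pdk1), where 6.44% of all genes were. None was at least 2-fold higher, where 3.82% of all genes were. At 1.5-fold, 7 were lower, against 12.7% of all genes, and 0 were higher, against 12.3%. Their median log2 ratio was -0.88, and that of all genes 0.044. The members were chosen with earlier results of these data known, so these shares describe them and are no test. In samples of many cells, fewer cells of a type cannot be told apart from less RNA per cell. All 8 genes passed the detection limit on both arrays, so none entered through 1 group alone.

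**Figure D1:**
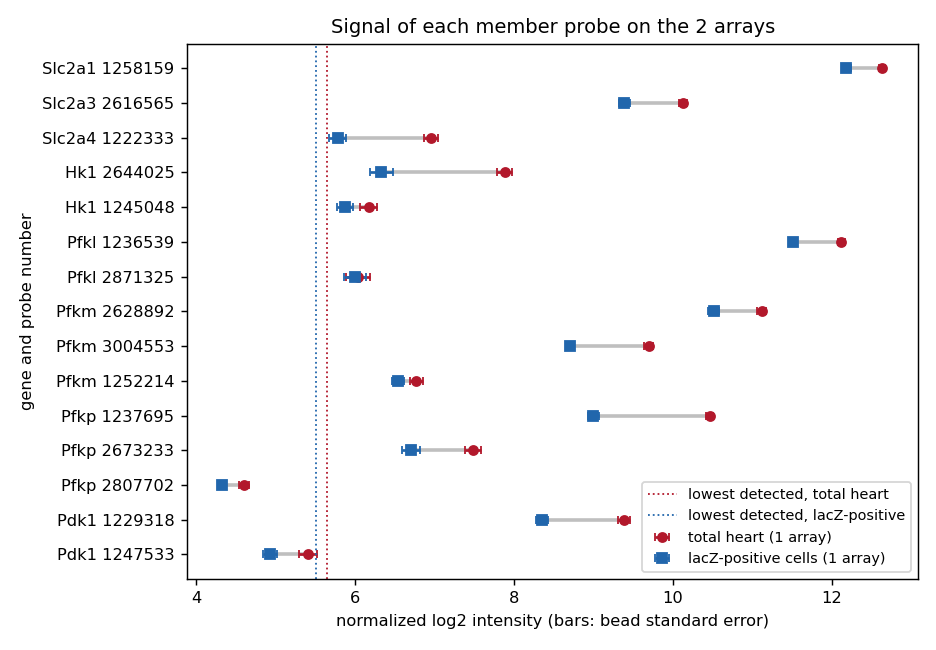
Normalized log2 intensity of each of the 15 member probes on the total heart array (circles) and the lacZ-positive array (squares), with bead standard errors as bars and the lowest detected signal of each array as a dotted line. Every square lies to the left of its circle, least for the second Pfkl probe (log2 ratio -0.040) and most for the brighter Hk1 probe (-1.55), and 1 probe of Pfkp and 1 of Pdk1 lie left of the dotted lines.

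The 3 transporter genes each had 1 probe, detected on both arrays. Slc2a1 (ILMN_1258159) had a deposited mean intensity of 5633 on the total heart array, with a bead standard error of 139, and 5213 with an error of 176 on the lacZ-positive array. The raw values were thus close, and after equalisation the log2 ratio was -0.45 with a bead error of 0.063. The deposited intensities of different probes cannot be compared with each other, so no order of the transporters by abundance is given. Slc2a3 (ILMN_2616565) read 984 in total heart and 807 in the lacZ-positive cells. Its log2 ratio was -0.74 with a bead error of 0.083. Slc2a4 (ILMN_1222333), the insulin-responsive form, was dim, at 143 in total heart and 98.1 in the lacZ-positive cells. The lowest intensities of any detected probe were 79.7 and 86.9 on those arrays, so background weighs on this value. The log2 ratio of Slc2a4 was -1.17, or 2.26-fold lower, with a bead error of 0.14. The size depended on the processing. It was under 2-fold with a larger offset of 50 (-0.83), with no background correction (-0.82), in the authors' processed values (-0.76) and with no normalization between the arrays (-0.85). With the arrays shifted to a common median it was -1.22.

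Slc2a1 and Slc2a4 thus differed in log2 ratio by 0.72 with a combined bead error of 0.15, and Slc2a3 lay between them, 0.29 below Slc2a1 and 0.44 above Slc2a4. A yardstick for such differences comes from genes with 2 probes detected on both arrays: over 2145 such genes, the probes of 1 gene differed in log2 ratio by a root mean square of 0.35. The step from Slc2a1 to Slc2a3 was within that spread and the other 2 steps were larger. With the authors' processed values Slc2a1 stood at -0.42, Slc2a3 at -0.71 and Slc2a4 at -0.76, and all 3 steps were within 0.35. With offset 50 Slc2a3 and Slc2a4 stood at -0.71 and -0.83, also closer together than in the main processing. The spread of 0.35 was worked out for the main processing only. Whether the transporters are separated in these other settings therefore cannot be told.

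Hk1, whose product traps glucose in the cell, had the lowest ratio by brightest probes under the main processing. Pfkp was lower than Hk1 with offset 50 (-1.40 against -1.24), with no background correction (-1.40 against -1.22) and in the authors' values (-1.40 against -1.16). With the mean over probes, Slc2a4, Pfkp and Pdk1 all lay below Hk1. The brighter Hk1 probe (ILMN_2644025) read 240.0 in total heart and 128 in the lacZ-positive cells, with bead errors of 12.9 and 9.18. This gave a log2 ratio of -1.55 with a bead error of 0.17, and 2.90% of all genes had a lower one. The other Hk1 probe (ILMN_1245048) read 97.6 in total heart and 103 in the lacZ-positive cells, so its raw values ran the opposite way. After equalisation that probe gave -0.29 with a bead error of 0.15, and with no normalization between the arrays 0.036. The probes of Hk1 differed by 1.26 with a combined bead error of 0.23, more than 0.35, the spread typical of 2 probes of 1 gene. They were designed on different transcript records, and which forms of Hk1 each reads is not known here. As that mean, Hk1 stood at -0.92, under 2-fold.

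Of the phosphofructokinase subunits, Pfkp was lower by more than Pfkl and Pfkm by the brightest probes. The brightest Pfkp probe (ILMN_1237695) read 1230.1 in total heart and 620.3 in the lacZ-positive cells, with bead errors of 39.1 and 28.5. The log2 ratio was -1.46 with a bead error of 0.085, or 2.76-fold lower. A second Pfkp probe (ILMN_2673233) read 189 and 155 and gave -0.78 with a bead error of 0.15. The third (ILMN_2807702) was detected on neither array, at 51.7 and 38.6, and has no fold here. Pfkp was the member that stayed at least 2-fold lower under every setting tried, with its mean over 2 detected probes at -1.12 and its smallest value, -1.04, without normalization between the arrays.

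Pfkl, the liver-type subunit, read 3917 in total heart and 3322 in the lacZ-positive cells by its bright probe (ILMN_1236539), for a log2 ratio of -0.61 with a bead error of 0.071. Its dim probe (ILMN_2871325) read 92.5 and 109, and the log2 ratio of -0.040 lay within its bead error of 0.20, or at 0.28 with no normalization between the arrays. Pfkl was thus lower beyond the bead error by 1 of its 2 probes only. Pfkm, the muscle-type subunit, had 3 probes detected on both arrays. The brightest (ILMN_2628892) read 1944 and 1713, for a log2 ratio of -0.60 with a bead error of 0.087. The next (ILMN_3004553) read 744 and 508, for -0.99 with a bead error of 0.074, just short of 2-fold. The dimmest (ILMN_1252214) read 129.7 and 142, and its log2 ratio was -0.23 with a bead error of 0.11, or 0.13 without normalization between the arrays.

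By their brightest probes, Pfkl and Pfkm had the same ratio, with a difference of -0.0030 and a combined bead error of 0.11. Pfkp lay 0.85 below Pfkl and 0.86 below Pfkm, with combined errors of 0.11 and 0.12. In the main processing the detected probes of Pfkp (-1.46 and -0.78) and those of Pfkl (-0.61 and -0.040) did not overlap. With the authors' processed values they did: the second Pfkp probe stood at -0.58 and the bright Pfkl probe at -0.65. The lower Pfkm probe, at -0.99 in the main processing, lay inside the range of Pfkp.

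Pdk1, the brake on pyruvate dehydrogenase, read 600.0 in total heart and 407 in the lacZ-positive cells by ILMN_1229318, with bead errors of 28.2 and 17.5. Its log2 ratio was -1.03 with a bead error of 0.10, which is 2.04-fold lower and at the 2-fold line within that error. It was under 2-fold with every other scaling or background correction, between -0.98 and -0.62. A second Pdk1 probe (ILMN_1247533) was detected on neither array, at 73.0 and 68.1.

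**Figure D2:**
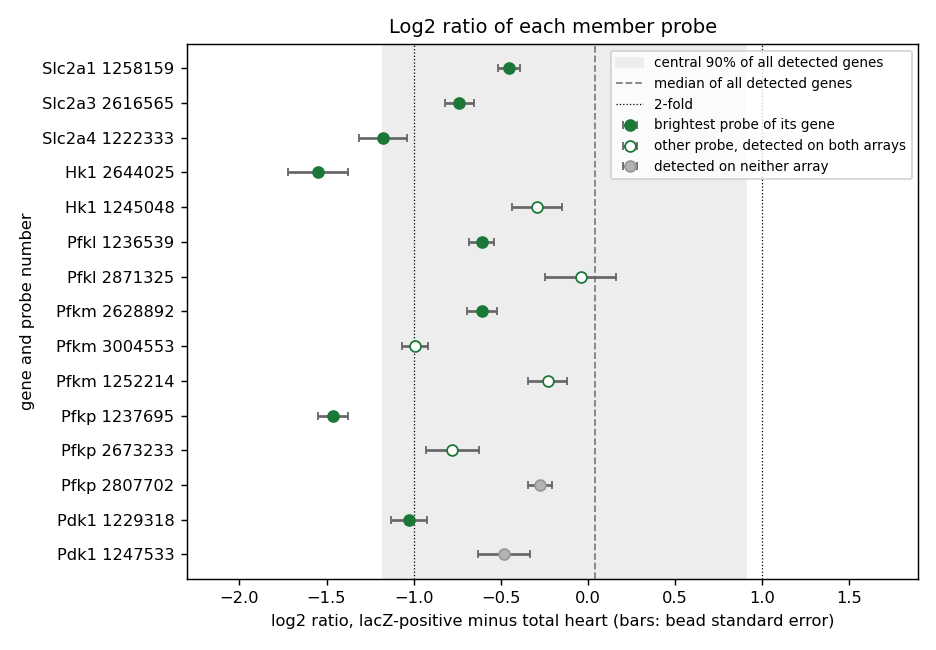
Log2 ratio of each member probe, lacZ-positive minus total heart, with bead standard errors, where filled points mark the brightest probe of a gene, open points other detected probes and grey points probes detected on neither array. The grey band holds the central 90% of all detected genes, from -1.18 to 0.91, and all 13 detected probes lie left of 0, with the brightest probes of Hk1 and Pfkp outside the band.

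Probe by probe, all 13 probes detected on both arrays had a log2 ratio below 0, as did 45.3% of the 14705 named probes detected on at least 1 array. Of the 13, 4 were at least 2-fold lower, against 5.96% of those probes. The 13 probes share 8 genes and are not independent. In Hk1, Pfkl and Pfkp the dimmer detected probe had the ratio closer to 0, and the dimmest of Pfkm had its smallest. Over the 2145 genes with 2 such probes this was so for 48.8%, and for 52 of the 89 among them whose brighter probe was at least 2-fold lower.

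In order of the log2 ratio of the brightest probes, from the lowest, the genes ran Hk1, Pfkp, Slc2a4, Pdk1, Slc2a3, Pfkl, Pfkm and Slc2a1. Only the step from Pdk1 to Slc2a3, of 0.29 with a bead error of 0.13, was larger than 2 combined bead errors, and no step exceeded the spread between probes of 1 gene. Neighbours in this order are therefore not separated by that spread, and the ends, Hk1 at -1.55 and Slc2a1 at -0.45, lie apart by the brightest probes only, since the second Hk1 probe, at -0.29, lies above Slc2a1.

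**Figure D3:**
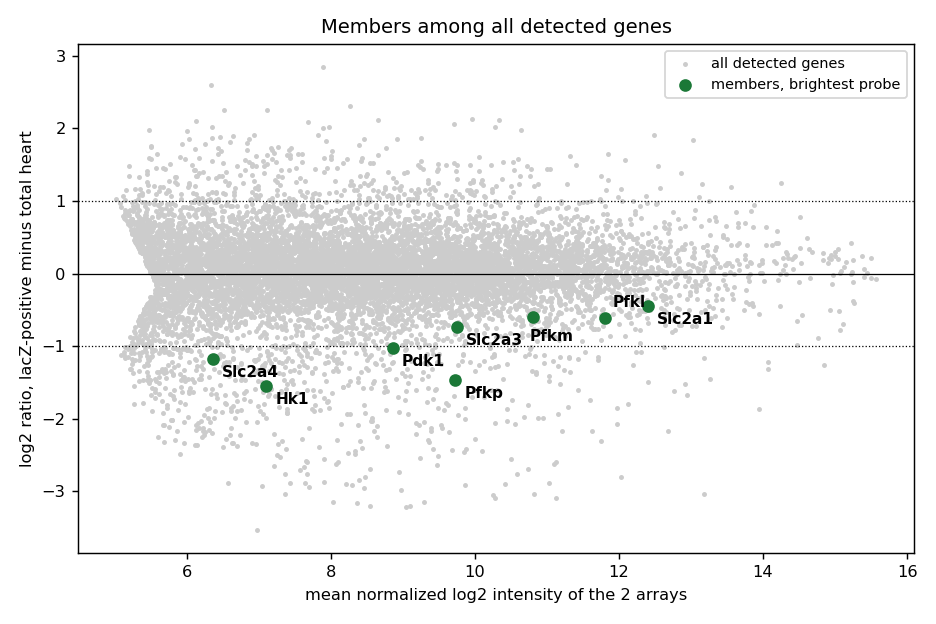
Log2 ratio, lacZ-positive minus total heart, against mean normalized log2 intensity for the 9713 detected genes (grey) and the 8 measured members (green, brightest probe). All 8 members lie below 0, from Slc2a1 at -0.45 among bright genes to Hk1 at -1.55 among dimmer ones, and other genes lie lower still at every brightness the members span.

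The genes that surround these steps did not all share the shift. They were counted in 8 further lists of glucose use, chosen with earlier results of these data known. Of 5 other detected transporters and uptake regulators, 1 was at least 2-fold higher and 0 were lower, against 3.82% and 6.44% of all genes. Their median log2 ratio was 0.22. The higher one was Slc2a13, a carrier of myo-inositol rather than glucose, at 1.63 with a bead error of 0.091, and its other probe also gave 1.63. Slc2a10 stood at 0.48, Slc2a8 at -0.49, and Txnip, whose product restrains glucose uptake, at 0.026. Among 4 detected genes that tune upper glycolysis, 0 were past 2-fold. The bifunctional enzyme genes Pfkfb2 and Pfkfb4, which set the activator of phosphofructokinase, stood at -0.19 and -0.025. G6pc3 stood at -0.081 and Adpgk, a hexokinase-like enzyme that uses ADP, at 0.16.

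In lower glycolysis all 12 detected genes had a ratio below 0 after equalisation, 4 were lower by at least 2-fold and 0 higher, with a median of -0.67. Among all genes, 45.7% were below 0 and 6.44% at least 2-fold lower. Without normalization between the arrays, 8 of the 12 were below 0 and all 12 were below the median of all genes. Pkm, Tpi1, Pgk1 and Aldoc were the 4 others, named after their values were seen, and a second probe of Pgam1 gave 0.034 in the main processing. The 4 were Bpgm, which makes bisphosphoglycerate in red cells (5.07-fold lower), Pklr, the pyruvate kinase of liver and red cells (at least 2.32-fold, not detected on the lacZ-positive array), Eno3, the enolase of muscle (3.63-fold), and Pgam2, its phosphoglycerate mutase (2.55-fold). The general form Pkm stood at -0.15 and Aldoc at -0.071, and a second probe of Pkm, not detected in total heart, gave 0.078. For Pklr the bound sets the total heart signal against the higher of its own value and the lowest detected value on the other array.

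Around pyruvate, the forks differed in size. Of 4 detected genes that handle lactate and pyruvate, 0 were past 2-fold, and Ldha, which makes lactate, stood at -0.29, Ldhb at -0.18, Me2 at -0.083 and Me1 at 0.47. Of 9 detected genes of the pyruvate dehydrogenase complex and its regulators, 7 were below 0, against 45.7% of all genes, and their median was -0.53. The 1 that was lower by at least 2-fold makes up 11.1%, near the 6.44% of all genes. It was Pdk4, a starvation-induced kinase of the complex, at -1.02, close to Pdk1 at -1.03. The bead error of Pdk4 was 0.17, so it was at the 2-fold line within that error. Its probe was dim, at 170 in total heart and 123 in the lacZ-positive cells. Without normalization between the arrays, 0 of these 9 genes were at least 2-fold lower. The complex's own subunit gene Pdhb stood at -0.82, and its other probes gave -0.56 and -0.34. The phosphatase genes Pdp2 and Pdpr stood at 0.28 and 0.022. Another probe of Pdp2 gave 0.30, and a further one, not detected on the lacZ-positive array, was at least 1.30-fold lower there.

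Branches that lead glucose away from glycolysis had ratios of either sign. In the pentose phosphate and hexosamine branches, 6 of 8 detected genes were above 0 and 2 below, where 45.7% of all genes were below. The median was 0.13. The 1 that was lower by at least 2-fold makes up 12.5%, near the 6.44% of all genes. Taldo1, or transaldolase, was 2.11-fold lower, and Rpia stood at -0.75. Without normalization between the arrays, 0 of these 8 genes were at least 2-fold lower and 2 were at least 2-fold higher. The hexosamine entry genes Gfpt1 and Gfpt2 stood at 0.68 and 0.84. Of 13 detected glycogen genes, 3 were at least 2-fold lower (23.1%, against 6.44% of all genes) and 0 higher (against 3.82%). Their median was -0.33. Pygm, the muscle phosphorylase that breaks glycogen down, was at least 2.93-fold lower. Ppp1r3c, which targets a phosphatase to glycogen, was 2.80-fold lower, and Gyg, the primer of glycogen synthesis, 2.26-fold. A second probe of Gyg gave -0.93, under 2-fold. Without normalization between the arrays, 2 of these 13 genes were at least 2-fold lower. Ugp2 stood at 0.27 and Gsk3b at 0.17.

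Slc2a1, Hk1 and Pdk1 are textbook targets of hypoxia-inducible factors, and a list of these factors and further targets was counted beside them. That list left out all genes counted among the members, in lower glycolysis or with lactate and pyruvate. Its median therefore does not stand for all targets of these factors. Of 18 detected genes, 0 were past 2-fold by their brightest probes, 7 were below 0 (38.9%, against 45.7% of all genes) and the median was 0.15. A second probe of Egln3 went against its brightest, which stood at 0.28: it was not detected on the lacZ-positive array and was at least 1.89-fold lower there. Hif1a itself stood at -0.75 and Egln1, an oxygen sensor that marks it for breakdown, at -0.85, while Car12 stood at 0.93 and P4ha1 at 0.66.

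**Figure D4:**
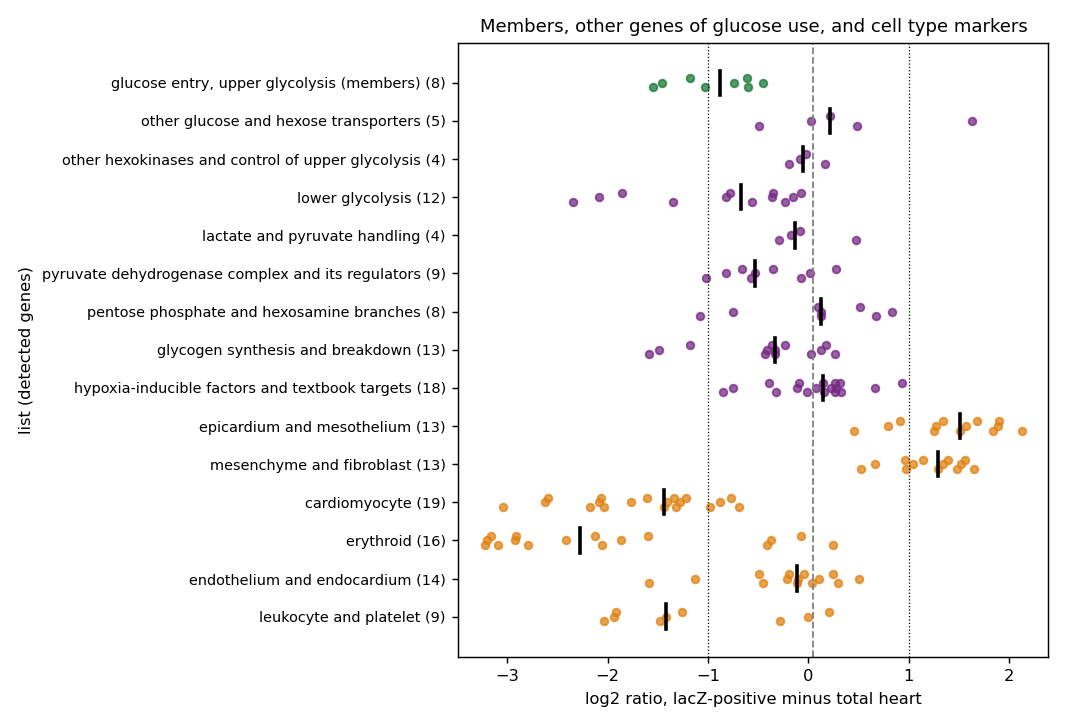
Log2 ratio, lacZ-positive minus total heart, of every detected gene of the members (green), 8 further lists of glucose use (purple) and 6 lists of cell type markers (orange), with a black bar at each median, a dashed line at the median of all genes (0.044) and dotted lines at 2-fold. The members' median of -0.88 lies left of those of the 8 other glucose lists, and the medians of the cardiomyocyte, erythroid and leukocyte and platelet lists lie further left.

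Markers of cardiomyocytes, of erythroid cells and of platelets were mostly below 0 as well, while those of leukocytes had ratios of either sign. All 19 detected cardiomyocyte markers were below 0, 15 of them at least 2-fold, and their summed normalized intensity was 244230 in total heart and 105798 in the lacZ-positive cells. No detected member of that list was missed on the lacZ-positive array, and its lowest and highest ratios were those of Nppa (-3.04) and Myl2 (-0.69). Of 16 detected erythroid markers, 12 were lower by at least 2-fold and 1 was missed on the lacZ-positive array. The list's median was -2.27. Their sums were 235482 and 174451, of which 5 globin genes gave 180259 and 162601. The other 11 summed to 55223 and 11850. Hemgn and Icam4 stood at -3.22 and -3.20, and the bright globin probes of Hbb-y and Hba-a1 at -0.075 and 0.25. Globin values varied with the gene and the probe. Hbb-b2 stood at -1.60, and a second probe of Hbb-bh1 at -1.46 against -0.41 for its brightest, while a second probe of Hbb-y gave -0.093. Whether signals as bright as those of Hbb-y, Hba-a1 and Myl2 reach the top of the arrays' range was not tested. Of 9 detected leukocyte and platelet markers, 6 were at least 2-fold lower, with sums of 3321 and 1209. These were the platelet genes Gp1bb (-2.03, not detected on the lacZ-positive array), Ppbp (-1.94), Gp9 (-1.92), Pf4 (-1.41) and Itga2b (-1.26), and the leukocyte gene Lyz2 (-1.48). The other leukocyte genes stood at -0.28 (Cx3cr1), 0.002 (Aif1) and 0.21 (Csf1r of macrophages).  The part of these cell types in the lower signal of the members was not tested.

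Markers of the labelled cells ran the other way. Of 13 detected epicardial and mesothelial markers, 10 were at least 2-fold higher, with sums of 6606 and 20934, led by Upk1b (2.13) and Upk3b (1.91). Tcf21 itself read 963 in total heart and 3191 in the lacZ-positive cells, a log2 ratio of 1.34 that does not check the allele, since the place of its probe is not known here. Tbx18, Msln and Sema3d were detected on neither array, and Wt1 was named by no probe. Of 13 mesenchymal markers, 9 were at least 2-fold higher. Of 14 endothelial markers, 12 were within 2-fold, as were 8716 of all 9713 genes. The others were Cldn5 (-1.59) and Robo4 (-1.13), both lower, and 9 of the 14 were below 0. The endothelial sums were 17146 and 17246, in which bright probes weigh most.

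Without equalisation of the arrays the sizes shifted for all genes, and the 8 members' brightest-probe values stayed below 0. With no normalization between arrays the median of all genes was 0.42 in place of 0.044, and the members' median was -0.46, which lies 0.88 below it. All 8 genes were below 0 there too, where 20.3% of all genes were, and 2 were at least 2-fold lower. Over all genes, the counts at 2-fold were 626 lower and 371 higher, and 382 lower and 1017 higher without that normalization.

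**Figure D5:**
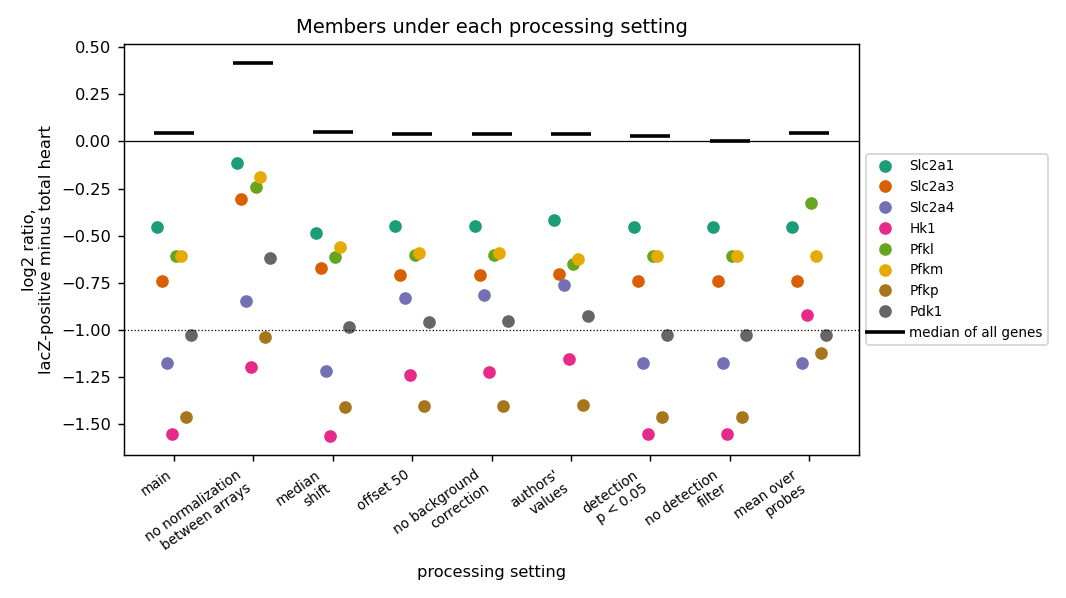
Log2 ratio of the 8 measured members, lacZ-positive minus total heart, under the main processing and 8 alternatives, with a black bar at the median of all genes and a dotted line at 2-fold lower. Every member lies below 0 and below the median of all genes in each setting, and Pfkp lies below the dotted line in all of them.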

How the data were processed

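Each sample had 1 Illumina bead array. For each of 45281 probes the authors deposited a mean intensity, its standard error over beads, a bead number and a detection p-value, per the file headers. GenomeStudio is named in the submitters' processing notes, with no version, and the genome build is not given in the sources used here. Checked on the values, these deposited intensities were linear, not background-subtracted and not equalised. Their median was 57.6 for total heart and 63.5 for the lacZ-positive cells, and a probe had a median of 43 beads. A second table deposited by the authors held processed intensities, equalised between the arrays by an unstated method, with a median of 58.3 on each and ranks as in the raw column (Spearman 1).

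Probe genes came from GEO's platform annotation. Intensities were corrected with normexp from detection p-values (nec, limma 3.58.1, R 4.3.3, offset 16), quantile-normalized and log2-transformed. These steps were also run on simulated arrays in which some bright probes were changed, equally up and down. That run does not cover dim probes or an uneven change such as that of the real arrays. Detection meant a p-value under 0.01, and a gene stood on its brightest detected probe. Bead errors were carried through the same map. A probe detected on 1 array has a bound ("at least"). Named genes were all members, then, of each glucose list, the 2 highest, the 2 lowest and any past 2-fold, and examples from the 2 highest and 2 lowest of each marker list. Hbb-b2 and Hbb-bh1 were named besides, for their probe values, and so were all detected leukocyte and platelet markers, to show these cell types apart. Members and lists were chosen with earlier results of these data known. Alternatives changed the equalisation, background, detection limit, probe choice and fold.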

Additional observations from a re-analysis of the deposited data

How the results depend on the processing

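No paired analysis was possible because each group had 1 array, and for the same reason no replicate could be left out. The count of members at least 2-fold lower was 4, and it was 2 with no normalization between arrays, with offset 50, with no background correction and with the authors' processed values, and 7 at a fold of 1.5. It was 3 with arrays shifted to a common median and with the mean over probes. Without normalization between arrays the members' median was -0.46. Over all genes, the lower count of 626 became 382 without that normalization, 404 with the authors' values and 1230 at 1.5-fold. The higher count of 371 became 1017, 219 and 1199 in the same order, 223 with offset 50 and 225 with no background correction. Without normalization between arrays the list medians were 0.59 for other transporters, 0.32 for control of upper glycolysis, -0.28 for lower glycolysis, 0.21 for lactate and pyruvate, -0.15 for the pyruvate dehydrogenase complex, 0.53 for the pentose and hexosamine branches, 0.039 for glycogen and 0.53 for hypoxia. The glycogen median was -0.041 without the detection filter. Of 65 probe values under alternatives, 46 moved by less than 0.25, the SD per probe between probes of 1 gene, and 3 changed sign, all without normalization between arrays. The cause of these shifts was not tested. Dim probes, such as that of Slc2a4, are limited by their small signal over background.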
